A study of Mus musculus with 21 samples.

Results

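The actin gene family of the mouse comprises 6 genes, and all 6 were followed here among the 21887 protein-coding genes of the gene table. They were chosen by name: the alpha actins of striated muscle, Acta1 (skeletal) and Actc1 (cardiac), the smooth muscle actins Acta2 (alpha) and Actg2 (gamma), and the cytoplasmic actins Actb (beta) and Actg1 (gamma). For each gene the percent of its body inside H3K36me3 peaks, called cover below, was measured in 20 libraries by day, medium and genotype. The libraries came from chromatin immunoprecipitation followed by sequencing (ChIP-seq) of C2C12, a mouse myoblast line that fuses into myotubes when it differentiates. Wild-type (WT) cells were sampled at day 0, at day 1 and day 5 on control medium, and at day 1 and day 5 under methionine restriction, with 2 replicate libraries in each of these 5 groups. A pair of lines that the labels name Setd2 KO, line 1 and line 2, gave 1 library each in each of the same 5 conditions. All groups share the C2C12 background, and the labels do not say whether a KO line is a single clone or whether replicates came from separate cultures, so p-values measure the spread between these libraries, which may be technical.

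H3K36me3 is histone H3 with a trimethylated lysine 36. SETD2 lays it down as the enzyme travels with elongating RNA polymerase II, and it marks the bodies of transcribed genes, more towards their 3' ends. SETD2 takes the methyl groups from S-adenosylmethionine, which cells make from methionine. When myoblasts differentiate they turn on the sarcomeric actins for the thin filaments, while the cytoplasmic actins belong to the cytoskeleton that every cell carries. Cardiac alpha actin is also made in developing skeletal muscle, and smooth muscle alpha actin is made by many cultured myoblasts. Transcription of actin genes is driven in part by serum response factor (SRF), which binds the CArG box, and by the myogenic factors, which bind E boxes.

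The genes lie on 6 chromosomes and differ in length, on the RefSeq annotation of GRCm38.p6. Acta1 spans chr8:123891758-123894775 (3.02 kb) and Actc1 spans chr2:114047282-114052875 (5.59 kb), and no other annotated gene overlaps either. Acta2 spans chr19:34240336-34255585 (15.2 kb), also without an overlapping gene. Actg2, the longest at 23.3 kb, spans chr6:83512909-83536251, and 19.3% of its body is shared with the gene Gm38844. Actb spans chr5:142903115-142907976 (4.86 kb), of which 8.25% is shared with Gm38733, and Actg1 spans chr11:120345687-120348495 (2.81 kb), of which 2.28% is shared with Mir6935. The actin proteins are closely alike, but the DNA of their genes was not compared here. The table also lists the pseudogenes Actb-ps1 and Actg-ps1. Where the study's read filters could place or drop reads that fit several copies, cover of these genes is uncertain.

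The RefSeq promoter table of GRCm38.p6 matched 4 of the 6 genes, Acta1, Actc1, Acta2 and Actg1. The 250 bases before the annotated start site are shown for the pair of sarcomeric genes, which gained cover together, and for Actg1, which had none. Capitals mark CArG boxes (a pair of C, any 6 of A or T, a pair of G, either strand) and sites with 1 base off in those 6.
Acta1 chr8:123894776-123895025, minus strand: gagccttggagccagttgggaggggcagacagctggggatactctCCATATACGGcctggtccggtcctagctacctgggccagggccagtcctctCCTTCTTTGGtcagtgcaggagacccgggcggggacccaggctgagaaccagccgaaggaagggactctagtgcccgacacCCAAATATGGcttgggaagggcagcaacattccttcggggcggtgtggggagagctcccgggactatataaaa
Actc1 chr2:114052876-114053125, minus strand: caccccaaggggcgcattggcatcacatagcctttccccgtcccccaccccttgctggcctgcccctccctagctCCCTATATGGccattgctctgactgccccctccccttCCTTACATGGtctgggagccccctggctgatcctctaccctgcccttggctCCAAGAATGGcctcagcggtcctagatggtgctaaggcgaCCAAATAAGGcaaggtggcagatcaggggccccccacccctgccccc
Actg1 chr11:120348496-120348745, minus strand: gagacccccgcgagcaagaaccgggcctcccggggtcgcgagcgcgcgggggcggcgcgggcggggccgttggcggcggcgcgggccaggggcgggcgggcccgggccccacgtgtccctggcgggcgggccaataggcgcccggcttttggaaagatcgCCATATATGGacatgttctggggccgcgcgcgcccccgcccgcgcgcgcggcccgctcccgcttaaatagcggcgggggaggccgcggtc
An exact CArG box was present in Acta1 (CCAAATATGG, from position -73), in Actc1 (CCAAATAAGG, from position -47) and in Actg1 (CCATATATGG, from position -90, counted upstream of the start site). Of the 27025 promoter windows of 300 bases in the table, which run from 250 bases before to 50 after the start site, 1.57% hold an exact box and 8.58% hold one with 1 base off. Acta2 had no exact box in its window but 2 sites with 1 base off, CCCTATATGG from position -84 and CCTTGTTTGG from position -34, and the first of these also stands in Actc1 from position -175. The start site of Acta2 in the promoter table lies inside the gene span given above, so the 250 bases before it, chr19:34255374-34255623, fall mostly within the annotated gene body and its positions count from that start. The E box, CANNTG on either strand, was found in all 4 windows and in 72.1% of all windows. TATAAA on either strand was found in Acta1 (from position -7) and Actc1 and in 14.2% of all windows. In Actc1 both the only E box (from 9) and TATAAA (from 34) lie past the start site and are not in the stretch printed above. The MEF2 site was found in none of the 4 and in 3.26% of all windows. These matches describe letters only. No peak of any of the 20 lists covered any base of the 250 bases before these 4 start sites, a region that this mark usually leaves free.

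WT lists held between 63423 and 87398 peaks covering 110 to 183 Mb, lists of KO line 1 held 791 to 64530 peaks, and lists of KO line 2 held 127 to 13880. Cover of Setd2, the targeted gene, was 45.6% to 82.8% in WT, 0% to 24.0% in KO line 1 and 0% in all 5 lists of line 2, which reports peaks on the gene and not the deletion or the protein. The KO lists of restricted day 1 stand apart, with 791 and 127 peaks, and peak names inside the lists call the KO lines replicates 1 and 2 of a single KO group. A peak list carries no read depth, so the depth of each library is unknown and whether few peaks go with few reads was not tested. Cover therefore says where peaks were called, not how much of the mark was present.

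The sarcomeric pair showed the widest range of cover. Acta1, whose product is the main thin filament protein of adult skeletal muscle, had 0% cover in both WT libraries at day 0. At day 1 on control medium it had 66.1% and 55.8%, and at day 5 on control medium 92.1% and 94.1%. Each step separated the libraries without overlap, and at day 5 the gene was covered almost from end to end. Under restriction the same gene had 19.8% and 0% at day 1 and 0% and 17.3% at day 5. At both days 1 of the 2 restricted libraries had no peak on Acta1 at all.

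Actc1 followed with smaller values. It had 0% in both WT libraries at day 0, 25.4% and 48.8% at day 1 on control medium, and 82.4% and 64.3% at day 5 on control medium. The restricted libraries had 6.49% and 7.22% at day 1, and 19.9% and 5.77% at day 5. All 4 restricted libraries thus had some cover of Actc1, and all 4 were below the control libraries of their day.

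Acta2, the smooth muscle alpha actin, was covered in every WT library. Its values were 79.0% and 72.8% at day 0, 75.2% and 78.7% at day 1 on control medium, and 81.4% and 81.5% at day 5 on control medium. Under restriction they were 59.9% and 60.9% at day 1 and 69.9% and 71.7% at day 5. The restricted libraries were the lowest of the WT set and did not overlap the others. Actg2, an actin of visceral smooth muscle, had little cover throughout, with 8.03% and 15.8% at day 0, 0% and 5.25% at day 1 on control medium and 1.26% and 3.29% at day 5 on control medium. Under restriction it had 20.6% and 8.02% at day 1 and 6.25% and 11.1% at day 5, which put it above the control libraries of each day.

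The cytoplasmic actins differed from each other. Actb had 64.8% and 73.1% at day 0, 63.8% and 64.4% at day 1 on control medium, and 57.1% and 58.6% at day 5 on control medium. Restricted libraries had 53.0% and 50.5% at day 1 and 50.6% and 56.0% at day 5. Actg1, the other cytoplasmic actin, had 0% in all 20 lists. Its nearest peak lay 19.8 to 21.9 kb away in the 10 WT lists and 29.7 to 71 kb away in the KO lists. Among the 3118 protein-coding genes of 2 to 6 kb, 53.0% had no cover in any of the 20 lists, and among all 19304 genes of at least 2 kb 33.0% had none, so an empty gene of this length was common.

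**Figure D1:**
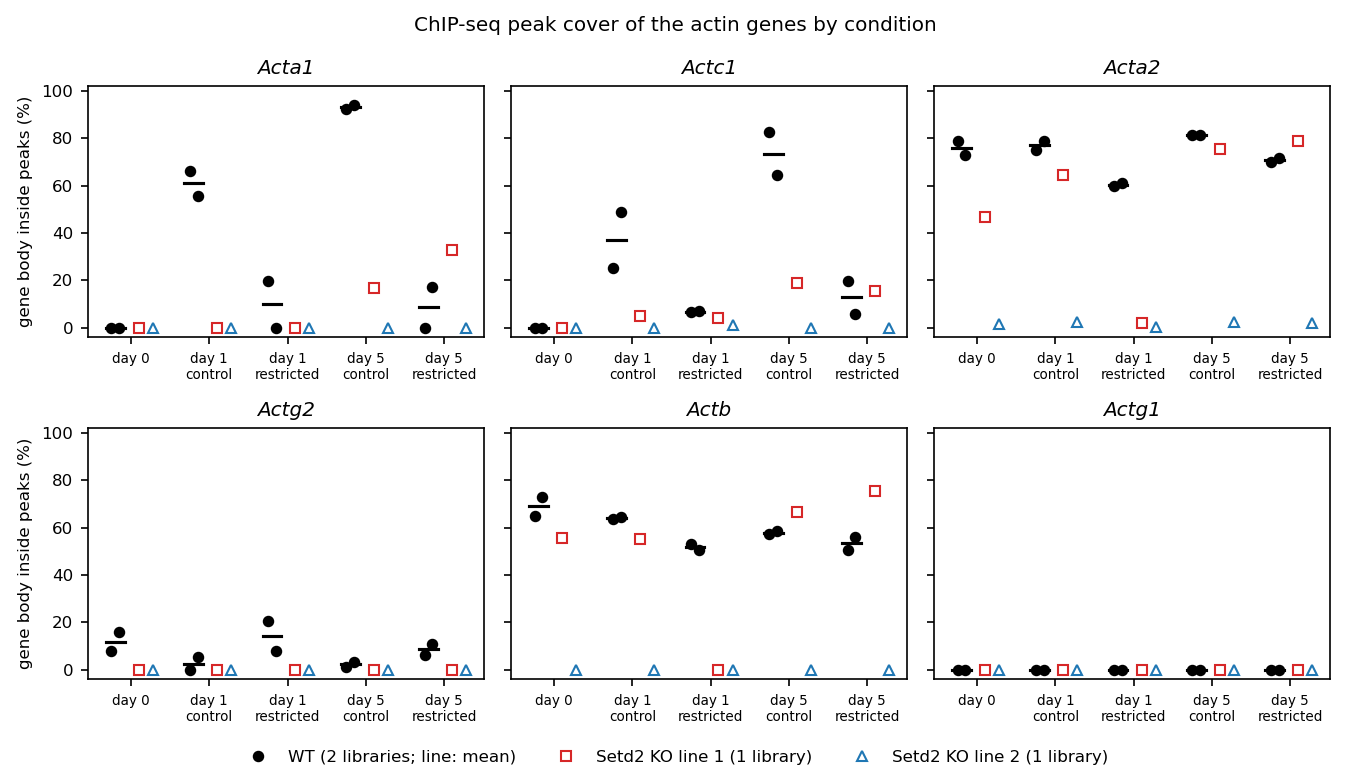
Percent of each actin gene body inside H3K36me3 peaks (vertical axis) in 5 conditions (horizontal axis), with 1 point per library: black circles for the 2 WT libraries with a line at their mean, open red squares for KO line 1 and open blue triangles for KO line 2. Acta1 and Actc1 start at 0% at day 0 and reach 92.1% and 94.1%, and 82.4% and 64.3%, at day 5 on control medium, while Actg1 is at 0% everywhere.

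The order of the genes changed over the conditions. At day 0 Acta2 (75.9% ± 4.39, SD, n = 2) and Actb (68.9% ± 5.89, SD, n = 2) led and their libraries overlapped, and Actg2 stood apart below them at 11.9% ± 5.47 (SD, n = 2). At day 1 on control medium Acta2 was first, Actb and Acta1 overlapped below it at means of 64.1% and 61.0%, and Actc1 came next at 37.1%. At day 5 on control medium Acta1 was first at 93.1% and did not overlap Acta2 at 81.5%. Acta2 and Actc1 (73.4%) overlapped there, and Actb was below them at 57.9%. Under restriction the order at both days was Acta2 and then Actb, with Actc1, Actg2 and Acta1 at means of 6.86% to 14.3% at day 1 and 8.66% to 12.8% at day 5, where neighbours in the order overlapped.

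The change over differentiation on control medium was tested first, in a limma fit across 9514 genes and all 10 WT libraries with Benjamini-Hochberg (BH) adjustment over all genes tested. From day 0 to day 5 the cover of both sarcomeric genes rose, and no other actin gene passed the test. Acta1 rose by 93.1 points (SE 7.61, adjusted p = 4.42e-05) and Actc1 by 73.4 points (SE 8.5, adjusted p = 0.000338). Acta2 differed by 5.57 points (adjusted p = 0.231), Actb by -11.1 points (adjusted p = 0.0784) and Actg2 by -9.62 points (adjusted p = 0.144). Actg1, with no cover, could not be tested. Actb was called without replicate 1 of day 0, at -15.2 points (adjusted p = 0.0384), and with peaks within 1000 bp merged, at -15.2 points (adjusted p = 0.0135). Of all genes tested 12.2% were called higher and 15.6% lower, and the median gene differed by -1.17 points. Higher calls were 43.8% of all calls, and 55.4% with each library centred on its median over the genes tested. Such centring subtracts a library's own median, which is not the median of the differences, so the median gene need not be at 0 on the centred scale. Among the tested genes of 2 to 6 kb 4.18% were called higher, and 99.9% of these genes had a smaller difference than Acta1 and 99.7% a smaller one than Actc1.

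Both genes were called at both steps, but the split of the Actc1 rise between the steps varied with the peak setting. From day 0 to day 1 Acta1 rose by 61.0 points (SE 7.61, adjusted p = 0.00491) and Actc1 by 37.1 points (SE 8.5, adjusted p = 0.0401), while Acta2 differed by 0.990, Actb by -4.83 and Actg2 by -9.27 points and none of these was called. Of all genes 0.967% were called higher and 5.67% lower at this step, with a median difference of -5.31 points. Higher calls were 14.6% of all calls, and 67.8% with libraries centred. From day 1 to day 5 Acta1 rose by a further 32.2 points (SE 7.61, adjusted p = 0.0175) and Actc1 by 36.3 points (SE 8.5, adjusted p = 0.0167), and Acta2 (4.58 points), Actb (-6.22 points) and Actg2 (-0.349 points) were not called. Of all genes 17.1% were called higher and 5.95% lower at this second step, with a median of 3.89 points, and higher calls went from 74.2% of all calls to 45.7% with libraries centred. The single steps rest on few libraries and on the peak setting. With only the libraries of the first step fitted neither gene was called (adjusted p = 0.125 for Acta1 and 0.161 for Actc1), and Actc1 shrank to 4.59 points (adjusted p = 0.713) at a -log10 q of at least 3 and to 12.7 points (0.597) with lists trimmed to 110 Mb. At these settings the second step of Actc1 was 68.8 points (adjusted p = 0.000479) and 60.7 points (0.0036). With peaks within 1000 bp merged Actc1 was not called at either step (51.9 points, adjusted p = 0.0641, and 21.5 points, 0.304), and Actb was called lower at the second (-14.3 points, 0.0195). For the first step the call of Actc1 was lost without day 0 replicate 1 (adjusted p = 0.116) or replicate 2 (0.0656), without day 1 control replicate 2 (25.4 points, 0.162), and without any 1 of the 4 restricted libraries (0.0605 to 0.0657). For the second step the call of Acta1 was lost without day 1 control replicate 2 (27.1 points, adjusted p = 0.0971), day 5 control replicate 1 (33.2 points, 0.0860) or replicate 2 (31.2 points, 0.0833), and that of Actc1 without day 1 control replicate 1 (24.6 points, 0.102) or day 5 control replicate 1 (27.3 points, 0.128).

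Methionine restriction was then compared with control medium on the same day. At day 5 the cover of both sarcomeric genes was far lower under restriction, and both calls held with libraries centred. Acta1 fell by 84.5 points (SE 7.61, adjusted p = 7.93e-05) and Actc1 fell by 60.6 points (SE 8.5, adjusted p = 0.000705), and with libraries centred these differences were -67.8 and -43.9 points. Acta2 fell by 10.7 points (SE 3.09, adjusted p = 0.0220), close to the median of all genes, -9.16 points. With libraries centred it was at 6.02 points (adjusted p = 0.131), where the median gene was at 7.52. The call of Acta2 was also lost without any 1 of the 4 libraries compared, with differences of -11.5 to -9.76 points and adjusted p from 0.0695 to 0.113. It was kept at a -log10 q of at least 3 (-17.8 points, adjusted p = 0.00577), where the median gene was at -6.93. Trimmed lists kept it too (-14.6 points, 0.0252, median gene -0.874), as did peaks within 1000 bp merged (-7.33 points, 0.0284, median gene -10.2). The distance of Acta2 from the median gene thus depended on the peak setting. Actb differed by -4.56 points (adjusted p = 0.391) and Actg2 by 6.42 points (adjusted p = 0.261). With libraries centred Actg2 was called higher, at 23.1 points (adjusted p = 0.00232). Of all genes 41.5% were called lower and 4.32% higher, and higher calls went from 9.44% of all calls to 72.9% with libraries centred.

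Values of genes of similar length were set beside those of the sarcomeric pair. Among 1197 tested genes of 2 to 6 kb, 52.7% were called lower at day 5 under restriction, with a median of -18.7 points. Of these genes 0.167% had a more negative difference than Acta1 and 4.59% a more negative one than Actc1. A gene cannot lose more cover than it has in control medium, and Acta1 (93.1%) and Actc1 (73.4%) had much to lose there, so these shares are partly fixed by control cover. Among the 620 of these genes with a mean of at least 50% on control medium at day 5, 66.6% were called lower, with a median of -26.5 points, and 0.323% had a more negative difference than Acta1 and 8.87% than Actc1. That subset was chosen on one arm of the difference and still spans a wide range of control cover, so its shares are given as a description.

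At day 1 restriction lowered the cover of 4 actin genes. Acta1 fell by 51.0 points (SE 7.61, adjusted p = 0.00126), Actc1 by 30.2 points (SE 8.5, adjusted p = 0.0232), Acta2 by 16.5 points (SE 3.09, adjusted p = 0.00368) and Actb by 12.4 points (SE 4.05, adjusted p = 0.0415). Actg2 was 11.7 points higher (SE 4.35, adjusted p = 0.0645), and it was called without day 0 replicate 2 (adjusted p = 0.0493) and without restricted day 1 replicate 2 (18 points, 0.0192). Of all genes 36.0% were called lower and 2.38% higher, the median gene differed by -7.99 points, and higher calls went from 6.20% of all calls to 73.9% with libraries centred. On the centred scale, where the median gene was at 7.2 points, only Acta1 stayed called lower among the 4 (-35.9 points, adjusted p = 0.00326), while Actc1 was at -15.0 (0.129), Acta2 at -1.33 (0.742), Actb turned to 2.81 (0.634) and Actg2 was called higher at 26.9 (0.00142). The call of Actb did not hold in any fit without 1 of the day 1 or day 5 libraries (adjusted p = 0.0580 to 0.149). That of Actc1 was lost without day 1 control replicate 2 (-18.5 points, 0.140), restricted day 1 replicate 1 (-29.9 points, 0.0835) or replicate 2 (-30.6 points, 0.0991), and at a -log10 q of at least 3 its difference shrank to -1.34 points. Among the tested genes of 2 to 6 kb 61.1% were called lower at day 1, with a median of -24.6 points, and 15.7% lay below Acta1 and 41.2% below Actc1. Among the 620 of these with a mean of at least 50% on control medium at day 5, 78.4% were called lower, with a median of -33.9 points. Of these 620 genes 26.0% lay below Acta1 and 57.9% below Actc1.

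**Figure D2:**
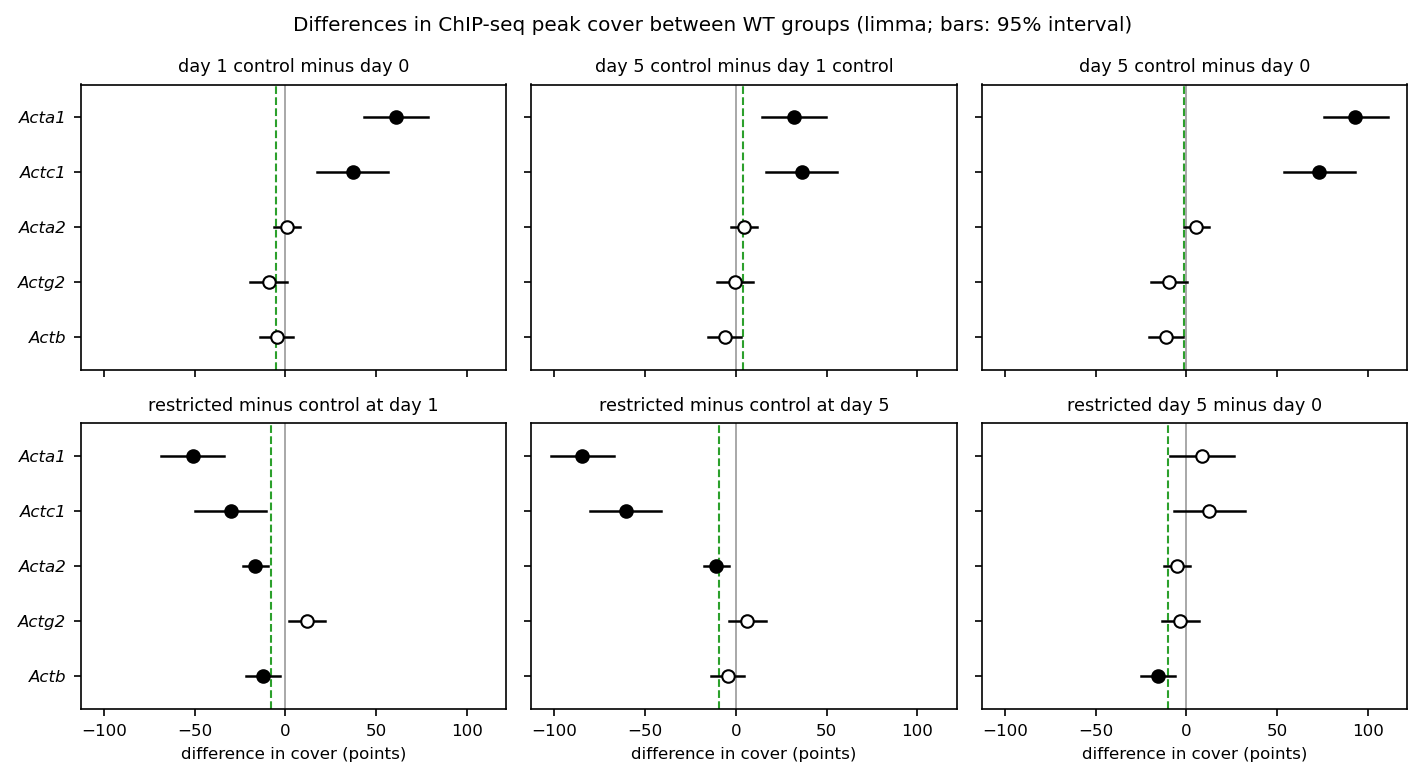
Differences in cover, in percentage points (horizontal axis), of 5 actin genes (vertical axis) in 6 comparisons of WT groups. Points are limma estimates with 95% intervals, filled where the adjusted p passed 0.05, and the dashed line is the median of the 9514 genes tested. Acta1 and Actc1 lie far to the right in the 3 comparisons over time and far to the left under restriction at day 5, while Acta2 and Actb lie near the dashed line under restriction at day 5, where both turn positive (6.02 and 12.1 points) with libraries centred on their median and the median gene at 7.52.

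Restricted cells at day 5 were also set against the myoblasts they started from. Actb was the only actin gene called, lower by 15.6 points (SE 4.05, adjusted p = 0.0130), and centred on the library median this became 3.44 points (0.545). The call was lost without day 0 replicate 2 (-11.4 points, adjusted p = 0.0707) and without restricted day 5 replicate 1 (-12.9 points, 0.0956). Among the tested genes of 2 to 6 kb, the length range of Actb, 63.8% were called lower, with a median of -25.3 points, so Actb fell less than the median gene of similar length. Acta1 (8.66 points, adjusted p = 0.381), Actc1 (12.8 points, 0.248), Acta2 (-5.09 points, 0.209) and Actg2 (-3.20 points, 0.577) were not called. Of all genes 43.5% were called lower and 4.05% higher, with a median of -9.84 points, and higher calls went from 8.51% of all calls to 75.3% with libraries centred. On that centred scale Acta1 (27.7 points, adjusted p = 0.00781), Actc1 (31.9 points, 0.00643), Acta2 (14 points, 0.00442) and Actg2 (15.8 points, 0.0115) were all called higher, where the median gene was at 9.21 points. Centring moves every gene of a comparison by the same amount. These calls therefore follow from the shift and are not particular to the actins, and the reading of this comparison depends on the scale.

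Whether the effect of restriction differed between day 5 and day 1 was tested as a difference of differences. In limma no actin gene passed at an adjusted p of 0.05, and 2 of the 5 tested had an unadjusted p under 0.05. These were Acta1 at -33.4 points (SE 10.8, unadjusted p = 0.0139, adjusted p = 0.122) and Actc1 at -30.3 points (SE 12, unadjusted p = 0.0347, adjusted p = 0.201), the limma values with BH adjustment. Of all genes 1.62% were called higher and 3.58% lower. At a -log10 q of at least 3 both sarcomeric genes were called, Acta1 at -32.2 points (adjusted p = 0.0297) and Actc1 at -69.2 points (adjusted p = 0.00705). They were also called with lists trimmed to 110 Mb, at -32.2 (0.0208) and -64.7 points (0.0283). With peaks within 1000 bp merged Actc1 was instead at -7.81 points (adjusted p = 0.864), so its size in this comparison depends on the peak setting. Higher calls were 31.1% of all calls, 59% at the stricter q, where the median gene was at 4.52 points, and 58.3% with trimmed lists.

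The position of the peaks within the genes was compared next, with each gene body divided into 10 segments of equal length. Acta1, Actc1 and Acta2 are on the minus strand, so their 5' end is the high-coordinate end. At day 5 on control medium the first segment of Acta1 was covered to 31.4% on average and all 9 later segments to 100%, whereas at day 1 on control medium the first 2 segments were empty and the fifth to ninth were full. Under restriction cover of Acta1 lay in the last 3 segments only, on means over 2 libraries. In Actc1 the first segment was empty in every WT group and the last 6 segments were full at day 5 on control medium, and under restriction most cover lay in the fifth segment, at 66.9% at day 1 and 74.8% at day 5. In Acta2 the first segment was likewise empty in every WT group. Its second segment held 11.8% at day 0, 13.4% at day 1 and 25.2% at day 5 on control medium, against 0% at both restricted days.

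For Actb and Actg2 the promoter table gives no strand, so segments are counted from the low-coordinate end. The first 5 segments of Actb were covered to 100% in all 5 WT groups and the last 2 segments to 0%. What differed was the middle, since the seventh segment held 72.8% at day 0, 42.0% at day 1 on control medium and 0% in the other 3 groups. Peaks on Actb also ran past the low-coordinate end of the gene, by 2.65 to 5.52 kb in day 0 and control libraries and by 0.118 to 1.36 kb in restricted libraries, without overlap between them. Peaks on Acta2 ran past its low-coordinate end by up to 8.10 kb. Cover of Actg2 lay in the first 6 segments in every WT group.

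**Figure D3:**
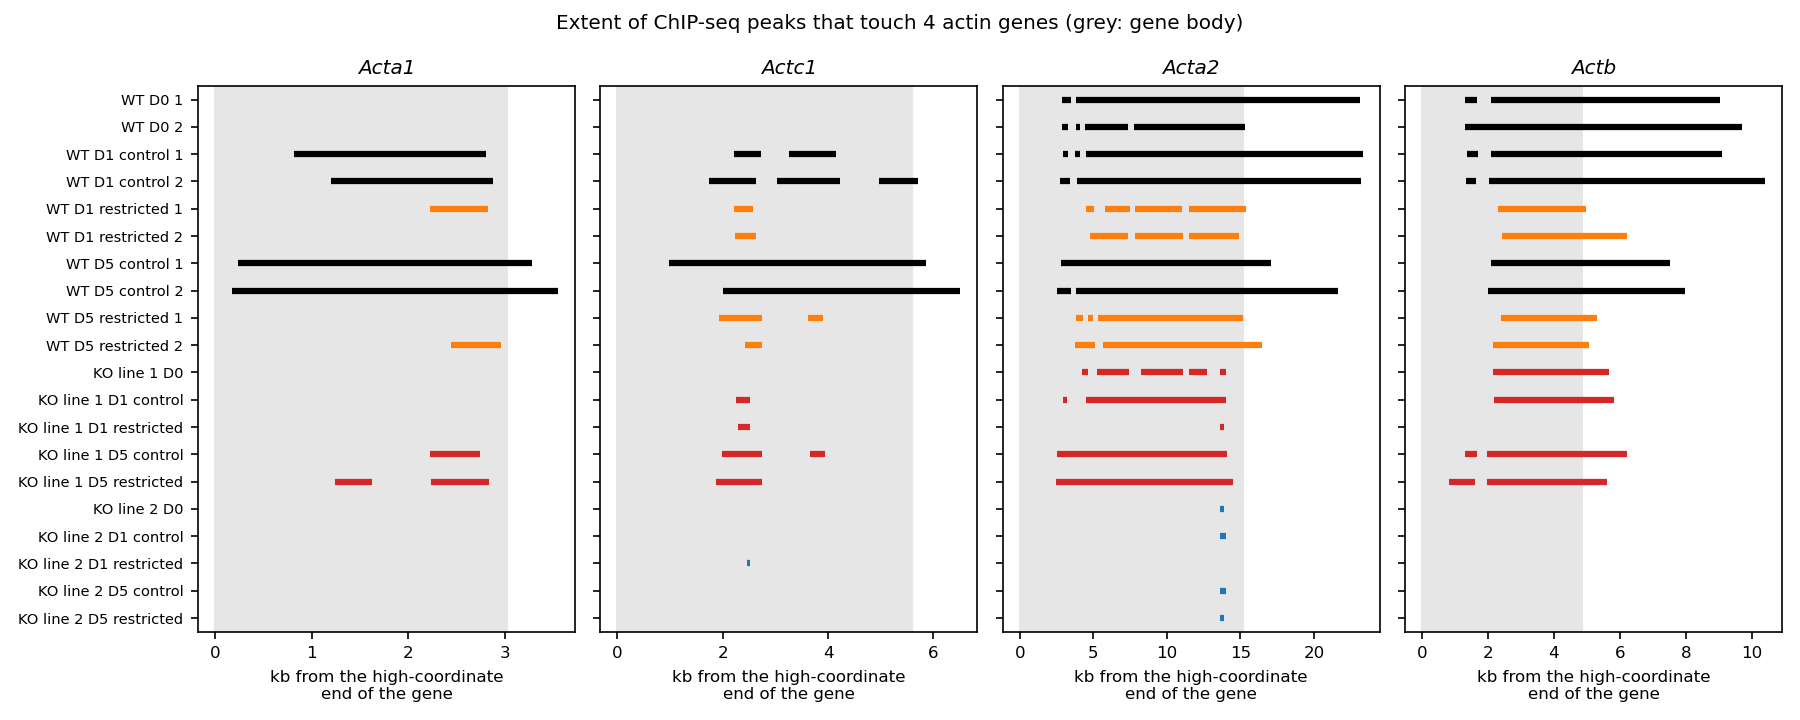
Extent of every peak that touches Acta1, Actc1, Acta2 or Actb in the 20 lists (rows), by distance in kb from the high-coordinate end of the gene (horizontal axis), with the gene body in grey. Black bars are WT day 0 and control lists, orange bars WT restricted lists, red bars KO line 1 and blue bars KO line 2. Peaks on Acta1 and Actc1 widen from day 1 to day 5 on control medium, and those on Actb extend 2.65 to 5.52 kb past the gene in WT control and day 0 lists.

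The height of the peaks is given as the rank of the authors' fold enrichment within each list. Actb carried some of the strongest peaks of the genome in day 0 and control libraries, where 21 to 100 peaks of a list had a higher fold. In restricted libraries 242 to 3499 peaks had a higher fold, of 63423 to 74942 in the list. For Acta1 80 and 335 peaks ranked higher at day 5 on control medium, which is 0.0915% and 0.384% of the lists, against 30.0% and 25.8% at day 1. For Actc1 1.69% and 2.39% ranked higher at day 5 on control medium. Ranks from lists of unequal length show no change by themselves and are given as a description within each list.

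In the KO lines cover of the actin genes was lower than in WT on average, and the lines differed from each other. Acta1 had 0% in KO line 1 at day 0 and at day 1 in both media, 17% at day 5 on control medium and 32.8% at day 5 under restriction. In line 2 it was 0% in all 5 lists. Actc1 in line 1 was 0% at day 0, 4.83% (control) and 4.13% (restricted) at day 1, and 18.9% (control) and 15.4% (restricted) at day 5. In line 2 it was 0% in 4 lists and 1% at restricted day 1. In line 1 the cover of both genes was highest at day 5. At restricted day 5 Acta1 in line 1 was above all 4 restricted WT libraries, and the KO mean (16.4%) was above the WT mean (8.66%).

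Acta2 and Actb kept much of their cover in KO line 1 and next to none in line 2. Acta2 in line 1 had 46.6% at day 0, 64.6% at day 1 and 75.4% at day 5 on control medium, and 1.95% at day 1 and 78.7% at day 5 under restriction. Actb in line 1 had 55.7%, 55.2% and 66.4% in the same control series, and 0% at day 1 and 75.4% at day 5 under restriction. The restricted day 5 value of Actb in line 1 was above every WT library. In line 2 Acta2 had 0.426% to 2.59% and Actb 0% in all 5 lists. Actg2 was at 0% in all 10 KO lists.

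Short peaks in KO line 2 lay where other lists also had peaks. On Acta2 they fell within 401 bp at chr19:34241586-34241986, a stretch that all 5 lists of line 1 and all 10 WT lists also touched. On Actc1 the single peak was 56 bp long, at chr2:114050356-114050411, where 4 lists of line 1 and 8 WT lists also had a peak, including all 4 restricted WT lists. Leaving all bases under line 2 peaks out of the gene bodies, an alternative chosen after the data were seen, changed no call of Actc1 or Acta2 in the WT comparisons. Whether these patches hold the mark or another kind of signal was not tested.

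Over the 5 conditions WT exceeded KO for each of the 4 actin genes tested in a limma fit of 8861 genes and 20 libraries. The difference was 29.6 points for Acta1 (SE 4.28, adjusted p = 1.74e-05), 21.6 for Actc1 (SE 3.79, adjusted p = 0.000103), 45.4 for Acta2 (SE 12.3, adjusted p = 0.00310) and 33.9 for Actb (SE 11.7, adjusted p = 0.0134). Actg2 had too little cover to be tested in this fit and Actg1 had none. Of all genes tested 97.9% were called higher in WT and 0.0339% lower, so a call says little about any single gene. The filter of 5% mean cover over all libraries keeps genes that are high in WT alone, as Acta1 and Actc1 were (KO means 4.97% and 4.42%). Without this filter 10321 of 12934 genes were called higher. The median gene differed by 42.3 points, and with libraries centred all 4 actins turned negative, to -16.6 for Acta1 (adjusted p = 0.00141), -24.6 for Actc1 (1.08e-05), -0.757 for Acta2 (0.956) and -12.3 for Actb (0.331). Acta1 and Actc1 were thus called in the opposite direction on that scale, where the median gene was at -3.94 points, while higher calls went from 8677 of 8680 to 2698 of 6650. Line 1 alone gave 19.6 points for Acta2 and 8.67 for Actb, and line 2 alone gave 71.3 and 59.2. The line 1 value of Actb leans on restricted day 1, where line 1 had 0% against a WT mean of 51.7%. On control medium or at day 0 line 1 was below the WT mean at day 0 (55.7% against 68.9%) and day 1 (55.2% against 64.1%). At day 5 it was above the WT mean on control medium (66.4% against 57.9%) and under restriction (75.4% against 53.3%). In fits with a single line each KO group is 1 library, which is assumed to vary like the WT groups, so their p-values rest on the spread of WT. Without the restricted day 1 libraries Actb was no longer called (29.5 points, adjusted p = 0.0703). An exact two-sided permutation of WT and KO within condition gave p = 0.0278 for Acta1, 0.0108 for Actc1, 0.00180 for Acta2 and 0.0141 for Actb, where the smallest p of the 7776 arrangements is 0.000257. A KO line is the same line in all conditions, so its 5 libraries are not independent.

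The gain of Acta1 and Actc1 over differentiation was larger in WT than in KO, in a comparison chosen after the data were seen. From day 0 to day 5 on control medium the WT change exceeded the KO change by 84.7 points for Acta1 (SE 13.5, adjusted p = 0.000601) and 64.0 points for Actc1 (SE 12, adjusted p = 0.00202), while Acta2 (-9.34, adjusted p = 0.885) and Actb (-16.4, adjusted p = 0.781) were not called. Of all genes 6.23% were called higher and 11.6% lower, with a median of -10.4 points, and higher calls went from 34.9% of all calls to 62.5% with libraries centred. With line 1 alone, where each KO group is 1 library and the spread is that of WT, Acta2 was at -23.3 points (adjusted p = 0.00346) and Actb at -21.8 points (0.0186), and with line 2 alone Acta2 was at 4.58 (0.774) and Actb at -11.1 (0.488). With peaks within 1000 bp merged Actc1 was at 55.9 points and not called (adjusted p = 0.0592). For restriction at day 5 the WT change minus the KO change was -92.4 points for Acta1 (SE 13.5, adjusted p = 0.000535) and -58.8 points for Actc1 (SE 12, adjusted p = 0.00513). Acta2 (-12, SE 38.9, adjusted p = 0.899) and Actb (-9.05, SE 37.0, 0.920) were not called, at a wide spread. KO means on control medium at day 5 were only 8.48% for Acta1 and 9.44% for Actc1, so KO could lose little cover. Both differences are thus largely set by control cover and say little about a differing response. In that comparison 2.48% of all genes were called higher and 13.1% lower, with a median of -4.15 points, and higher calls went from 15.9% of all calls to 71.9% with libraries centred. The merged setting again lost Actc1 (-43.1 points, adjusted p = 0.159).

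Across the 10 WT libraries Acta1 and Actc1 had a Pearson r of 0.91 (Spearman 0.80), given as a description, since the libraries share their groups and their unknown depth. Only these 2 actin genes ranged over at least 25 points, by 94.1 and 82.4 points, against 22.6 for Actb, 21.6 for Acta2 and 20.6 for Actg2. By the highest Pearson r over the 10 WT libraries the genes most like Acta1 were Add3 (0.985), Rgma (0.975) and Myog (0.972). Myog, which encodes the myogenic factor myogenin, had means of 0% at day 0, 71.9% and 92.6% at day 1 and day 5 on control medium and 0% at both restricted days. Rgma, a bone morphogenetic protein co-receptor, had 5.88%, 51.0% and 80% in the control series and 3.77% and 17.6% under restriction. Add3, an adducin, had the same shape at a low level, between 2.38% and 11.1%. The genes most like Actc1 were Sesn1 (0.973), Mrgprf (0.971) and Tmem38a (0.971), and Tmem38a, a cation channel of the sarcoplasmic reticulum, went from 0% at day 0 to 25% and 68.8% on control medium and had 0% and 1.58% under restriction.

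**Figure D4:**
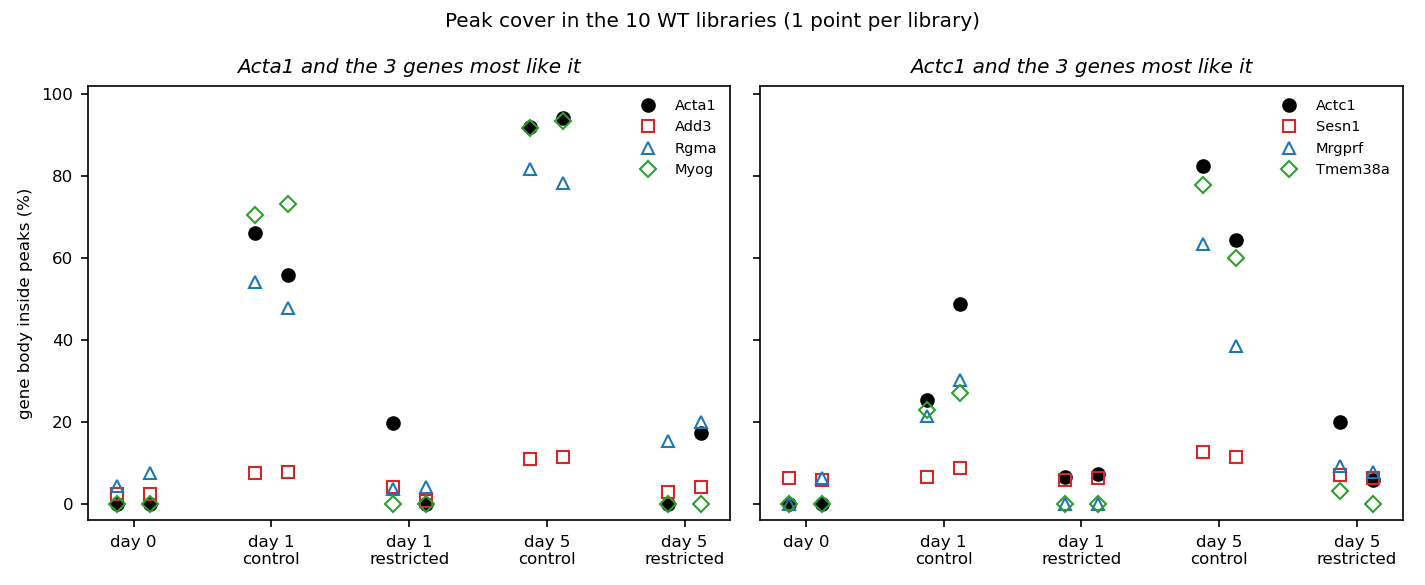
Percent of gene body inside peaks (vertical axis) in the 10 WT libraries by condition (horizontal axis), 1 point per library, for Acta1 and Actc1 (filled) and the 3 genes with the highest Pearson r to each (open). Myog and Rgma reach means of 92.6% and 80% at day 5 on control medium beside Acta1, whereas Add3 and Sesn1 correlate at low cover, with means up to 11.1% and 12%.

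Genes that work with the actins were described from lists chosen with earlier results known. Of the 12 muscle thin filament and Z-disc partners, 11 rose from day 0 to day 5 on control medium, against 12.2% of all genes, with a median of 63.3 points against -1.17. The largest differences were those of Neb, the giant protein along the thin filament (94.6 points, adjusted p = 1.08e-06), and Nrap, a nebulin relative (77.2 points, adjusted p = 2.22e-06). At the first step 1 of the 12 rose, Ldb3 (32.2 points, adjusted p = 0.00592), against 0.967% of all genes, and at the second step 9 did, against 17.1%. The medians of the list were 4.43 and 59.9 points at these steps, against -5.31 and 3.89 for all genes. Restriction lowered 6 of the 12 at day 1, against 36.0% of all genes, with a median of -10.1 points against -7.99. At day 5 it lowered 11, against 41.5%, with a median of -45.7 points against -9.16, led by Lmod3 (-61.3 points, adjusted p = 2.00e-05), which nucleates thin filaments, and Cfl2, the muscle cofilin (-60.3 points, adjusted p = 4.22e-05). Under restriction at day 5, Neb was nevertheless 82.1 points (adjusted p = 7.39e-06) and Nrap 56.0 points (adjusted p = 1.35e-05) above day 0, among 5 of the 12 that rose and 2 that fell (4.05% and 43.5% of all genes), while Acta1 and Actc1 were not called. Cap2 (-56.4 points, adjusted p = 0.000307) and Lmod3 (-54.4 points, 0.00126) led the 5 genes with a larger loss at day 5 than at day 1, against 3.58% of all genes.

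The counts of the other lists are read against all genes, of which 12.2% rose and 15.6% fell from day 0 to day 5 on control medium, and 36.0% and 41.5% fell under restriction at day 1 and day 5. Of 17 tested of 18 actin-binding genes, 1 rose and 3 fell from day 0 to day 5 on control medium, with Fscn1, the bundling protein fascin, at -25.5 points (adjusted p = 0.00267). Restriction lowered 13 at day 1 and 15 at day 5, led by Lasp1 (-57.5 and -60.3 points) with Pfn1, the monomer-binding profilin, at -51.3 points at day 1, and medians of -21.4 and -29.1 points against -7.99 and -9.16 for all genes. Of 14 tested of 16 genes of the SRF and MRTF axis, 2 rose and 2 fell from day 0 to day 5, among them Abra, an activator of SRF signalling (23.7 points, adjusted p = 0.00568), and Myl9 (-27.5 points, adjusted p = 0.00271). Restriction lowered 10 of them at day 1 and 11 at day 5, led by Zyx (-49.3 and -50.5 points) and Tpm1 (-48.8 and -49.8 points). Of 16 tested of 19 nucleation and turnover genes, 2 rose and 2 fell from day 0 to day 5 and 8 fell under restriction at each day, shares near those of all genes, with Wasf2 at -50 points at day 5 (adjusted p = 5.45e-05). Of 12 genes of actin folding and modification, 1 rose from day 0 to day 5, and restriction lowered 4 at day 1 and 7 at day 5, where the day 0 to day 5 and day 1 counts are near the shares of all genes. The gene that rose was Tbcd (31.2 points, adjusted p = 0.00162), which encodes a tubulin folding cofactor and is not known for folding actin. Setd3, the enzyme that methylates a histidine of actin, was 24.9 points lower under restriction than on control medium at day 5 (adjusted p = 0.00182), after a rise of 20.8 points from day 1 to day 5 on control medium (adjusted p = 0.00857).

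Marker lists were read beside these results. Of 6 genes of differentiating skeletal muscle 5 (Myog, Mymk, Myh3, Ckm and Tnnt3) were at 0% in both WT libraries at day 0 and restricted day 1, and their summed cover with Ttn was 61.2 to 81.5 points at day 0, 241 to 256 at day 1 and 513 to 537 at day 5 on control medium, and 213 to 221 at restricted day 5. Of 4 myoblast genes, Myod1 and Myf5 were at 0% in all 4 restricted libraries, but Myf5 was also at 0% in both day 5 control libraries and in 1 of the 2 at day 1, and Cdh15 kept 68.3% to 74.4% under restriction. The list summed to 234 to 250 points over the day 0 and control libraries and 103 to 117 under restriction. Of 6 cardiac markers, Nppb, Tnni3, Myl7 and Ryr2 were at 0% in all 10 WT lists, while Nppa was at 47.2% in 1 library of day 0 and 36.7% in 1 of day 1 on control medium, and Myh6 at no more than 4.2%. The list summed to 0 to 47.2 points at day 0, 0 to 36.7 at day 1 and 0 to 4.2 at day 5 on control medium, and 0 to 1.49 under restriction. Of 6 smooth muscle markers, Myocd was at 0% in all WT lists and Myh11 at no more than 1.19%, and Smtn made up most of the sum, which was 93.3 to 108 points over the day 0 and control libraries and 64.9 to 74.5 over the restricted ones. Smtn was called lower under restriction, by 24.9 points at day 1 (adjusted p = 0.000501) and 28.4 points at day 5 (adjusted p = 0.000194), beside the lower cover of Acta2. Fibroblast genes (Pdgfra, Dcn, Lum, Col1a1) summed to 56.6 to 69.6 points at day 0, 72.3 to 72.9 at day 1 and 118 to 123 at day 5 on control medium, and to 23.3 to 28 at day 1 and 70.2 to 70.8 at day 5 under restriction. From day 0 to day 5 on control medium Dcn rose by 30.3 points (adjusted p = 7.20e-05) and Col1a1 by 29.2 points (adjusted p = 0.00145), beside the rise of Acta1 and Actc1. The other fibroblast genes did not rise. Pdgfra went from 1.22% and 3.23% at day 0 to 0% in both day 5 control libraries, and Lum was at 0% in all 10 WT lists. Adipocyte (3 genes) and endothelial (2 genes) markers were at 0% in all WT lists, neuronal ones (2 genes) summed to at most 0.0678 points, and of the 2 leukocyte markers Ptprc was at 0% while Cd68, also made outside leukocytes, was at 94.0% to 100% in day 0 and control libraries and 0% to 15.9% in restricted ones. The part of other cell types in the actin values was not tested.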

How the data were processed

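Broad H3K36me3 peak lists of 20 single-end ChIP-seq libraries were used as deposited, 1 per library. The build was GRCm38, per the submitters' processing notes, and the aligner and peak caller are not given in the sources used here. In each list the authors deposited, per peak, a score, a fold enrichment, and −log10 p and −log10 q values. Only the peak positions, the fold (to rank peaks within a list) and the −log10 q (for a stricter alternative) were used. The lists give no read counts, so depth is unknown and no counting interval is given. Per the labels' protocols Drosophila chromatin was added, but no spike-in scaling was used here. The input library was not used here. The lists' own peak names call the KO lines replicates of 1 group, and the labels were followed.

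Peaks of a list were merged, and the percent of each RefSeq GRCm38.p6 gene body inside them was computed. Protein-coding genes of at least 2 kb whose cover averaged 5% or more over the fitted libraries were tested with limma 3.58.1 in R 4.3.3 (trend and robust, Benjamini-Hochberg adjustment over all genes tested, called at an adjusted p of 0.05). The WT fit held 5 groups of 2 libraries, and the fit of WT with KO held 10 groups, with the 2 KO lines as the libraries of a KO group. Differences are in percentage points of cover. Single values of WT against KO were also tested by exact permutation within condition. The remaining steps used Python 3.11.15, numpy 2.4.6, pandas 2.3.3 and matplotlib 3.10.9, and the cover and limma steps were tested on simulated data. Alternatives were a −log10 q of at least 3, peaks within 1000 bp merged, bases shared with other genes left out, lists trimmed to 110 Mb, libraries centred on their median, no filter on low cover, a replicate block, only the libraries compared, single KO lines, and each WT library left out. The members and lists were chosen with earlier results of these data known. Named were all 6 actins, for an actin ranging over at least 25 points the 3 genes with the highest Pearson r, and of each list the 2 called genes with the largest difference in each direction. The set of genes of 2 to 6 kb, both comparisons of a change between WT and KO, the alternative without bases under KO line 2 peaks and the one without the restricted day 1 libraries were chosen after the data were seen.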

Additional observations from a re-analysis of the deposited data

Results flagged for a closer look

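In 4 results the effect of a condition differed between WT and KO by a test of the difference itself, in comparisons chosen after the data were seen. From day 0 to day 5 on control medium the difference in cover was larger in WT by 84.7 points for Acta1 and by 64.0 points for Actc1. Between restricted and control medium at day 5 the difference in WT minus that in KO was -92.4 points for Acta1 and -58.8 points for Actc1. KO means on control medium at day 5 were only 8.48% for Acta1 and 9.44% for Actc1, so KO could lose little cover and these values are largely set by that. All 4 passed limma's test with Benjamini-Hochberg adjustment, and they share the WT and KO libraries of day 5 on control medium.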

How the results depend on the processing

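The differences of Acta1 and Actc1 from day 0 to day 5 on control medium and under restriction at day 5, and that of Acta1 under restriction at day 1, kept their direction and their call in all 19 alternatives. The first ranged from 92.1 to 95.5 points for Acta1 and from 64.3 to 82.4 for Actc1, and the second from -93.1 to -67.8 and from -70.5 to -43.9. Over all actin genes and alternatives 795 values kept their direction and side of the threshold and 22 changed sign. Of the values that kept their sign 49 lost a call and 15 gained one, and calls lost or gained with a change of sign are not in these counts. The causes were not tested.

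The number of actin genes called from day 0 to day 1 went from 2 to 1 at a −log10 q of at least 3, with peaks within 1000 bp merged, with lists trimmed to 110 Mb, without a filter and with the replicate block (where Actc1 had a limma adjusted p of 0.0617), and to 0 with only the libraries compared. From day 1 to day 5 it went from 2 to 1 with only the libraries compared. Under restriction at day 1 it went from 4 to 2 at the stricter q, with lists trimmed to 110 Mb and with libraries centred. For restricted day 5 against day 0 it went from 1 to 4 centred and to 0 with only the libraries compared. For the effect of restriction at day 5 against day 1 it went from 0 to 2 at the stricter q and with lists trimmed to 110 Mb, and for WT against KO from 4 to 2 centred, where both calls (Acta1 and Actc1) were in the opposite direction. For the change over differentiation in WT against KO it went from 2 to 1 with peaks merged and to 4 with KO line 1 only (1 library in each KO group, so the spread is that of WT), and for restriction at day 5 in WT against KO from 2 to 1 with peaks merged.

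With single libraries left out, the count ranged from 1 to 2 (day 0 to day 1), 0 to 2 (day 1 to day 5), 2 to 3 (day 0 to day 5), 2 to 5 (restriction at day 1), 2 to 3 (restriction at day 5), 0 to 1 (restricted day 5 against day 0), 0 to 0 (day 5 against day 1), 4 to 4 (WT against KO) and 2 to 2 for both changes in WT against KO.

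Signs turned with libraries centred for Actb from day 0 to day 1 (3.65) and under restriction at day 1 (2.81) and day 5 (12.1), for Acta2 from day 1 to day 5 (-1.53) and under restriction at day 5 (6.02), and for Acta2, Actg2 and Actb at restricted day 5 against day 0 (14, 15.8 and 3.44). They also turned for Acta1, Actc1, Acta2 and Actb in WT against KO (-16.6, -24.6, -0.757 and -12.3) and for Actb in restriction at day 5 in WT against KO (2.56). Acta2 turned in the effect of restriction at day 5 against day 1 at the stricter q (-2.72) and with lists trimmed to 110 Mb (-0.725), and in the change over differentiation in WT against KO with KO line 2 only (4.58). With single libraries left out Acta2 ranged from -2.11 to 4.09 from day 0 to day 1 (-0.761 without day 1 control replicate 2), and Actg2 from -2.97 to 2.27 from day 1 to day 5, -7.07 to 0.670 at restricted day 5 against day 0, and -11.6 to 1.03 for day 5 against day 1.

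The number of all genes called from day 0 to day 1 went from 631 to 196 with lists trimmed to 110 Mb, 335 centred and 0 with only the libraries compared (1877 at an unadjusted p under 0.05 in limma), and ranged from 142 to 987 with single libraries left out. From day 1 to day 5 it went from 2193 to 1296 at the stricter q (1108 to 2693 with single libraries left out), and from day 0 to day 5 from 2641 to 1706 with only the libraries compared (1758 to 2657). Under restriction it went from 3648 to 2291 with lists trimmed to 110 Mb at day 1 (2354 to 3984) and from 4356 to 2897 at the stricter q at day 5 (2721 to 4661). For day 5 against day 1 it was 495 (212 to 659). The change over differentiation in WT against KO gave 1580, 3829 with KO line 1 only and 825 with line 2 only, and restriction at day 5 gave 1381, 2083 with line 1 only and 884 to 1637 with single libraries left out.

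Same-numbered WT libraries did not deviate in the same direction, so the numbers were not taken as pairs. Correlations across 9514 genes, which are not independent, were -0.08 to 0.06 for all pairs of groups but 1. Day 0 and day 1 on control medium deviated in opposite directions, at -0.44, and the cause was not tested. The replicate block changed no other actin call, and the number of all genes called from day 0 to day 1 went from 631 to 466. With 2 libraries a group and no depth, a peak that was not called is not an absent mark, and short genes such as Acta1 can go from empty to covered with 1 peak.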
